A study of Mus musculus with 2 samples.

Results

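Nucleolar ribosome assembly genes were examined in cultured mouse CD4 T cells on 2 Affymetrix expression arrays, 1 for each of 2 culture conditions. The genes were chosen by symbol: those named Utp, Rrp, Nop or Nol with a number, the RNA polymerase I subunit genes Polr1a to Polr1e, and Fbl, Ncl, Npm1, Nolc1, Bop1, Pes1, Wdr12, Dkc1, Gar1, Nhp2, Rrs1, Rrn3 and Ubtf. This gave 55 genes of 18193 with a named probe set, covered by 122 probe sets, each probe set being several short oligonucleotides whose readings are condensed into 1 signal for a transcript. Each gene was read on its brightest probe set, so the signals themselves chose the value, and the list was proposed after results of these arrays were known.

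Both cultures began with splenic CD4 T cells of wild type C57BL/6 mice, enriched magnetically and activated through the T cell receptor and CD28 for 2 days, then kept for 3 days more. The CD103+ Th1 medium held 3 ng/ml IL-4, 10 ng/ml IFN-γ and 3 ng/ml TGF-β. Th1 medium held 1 ng/ml IL-12 and 1 µg/ml of the IL-4 antibody 11B11. The labels give neither the number of mice nor whether cells were pooled. With 1 array per condition there is no replicate error, no test and no p-value, and culture, array and medium cannot be told apart. All folds compare the CD103+ Th1 array with the Th1 array, and log2 ratios are of the former over the latter. In such whole cultures, a smaller share of cells with a transcript and less of it per cell cannot be told apart.

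Ribosomes are assembled in the nucleolus. RNA polymerase I transcribes a long precursor of the ribosomal RNAs, small nucleolar ribonucleoproteins (snoRNPs) modify and help cleave it, and large sets of assembly factors fold it with ribosomal proteins into the small and the large subunit. Activated T cells enlarge their nucleoli when they grow and divide, and MYC is a known activator of many of these genes.

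As a group, the nucleolar genes had lower signals in CD103+ Th1 than in Th1. The median of all signals, 78.5, served as a floor, since lower signals are mostly background, and signals below it were set to it. Of the 55 genes, 53 exceeded the floor on both arrays, Nol3 on the Th1 array only and Nol4 on neither, so 54 had a ratio. Of these 54, 51 had a log2 ratio below 0, against 52.6% of the 11194 measured genes. At least 1.5-fold lower were 26 (48.1%), against 13.4% of all measured genes, and at least 1.5-fold higher were 0, against 12.4%. At 2-fold, 5 genes (9.26%) were lower, against 4.87% of all measured genes, and 0 were higher, against 5.04%. The differences were thus mostly small, with 49 of the 54 genes under 2-fold. The median log2 ratio was -0.54, and -0.03 over all measured genes, and the 54 values ran from -1.33 for Utp18 to 0.42 for Nol10. Among those 53 genes, signals ran from 109 to 17790.2 with a median of 815 in CD103+ Th1. In Th1 they ran from 137 to 21997 with a median of 1250.07.

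**Figure D1:**
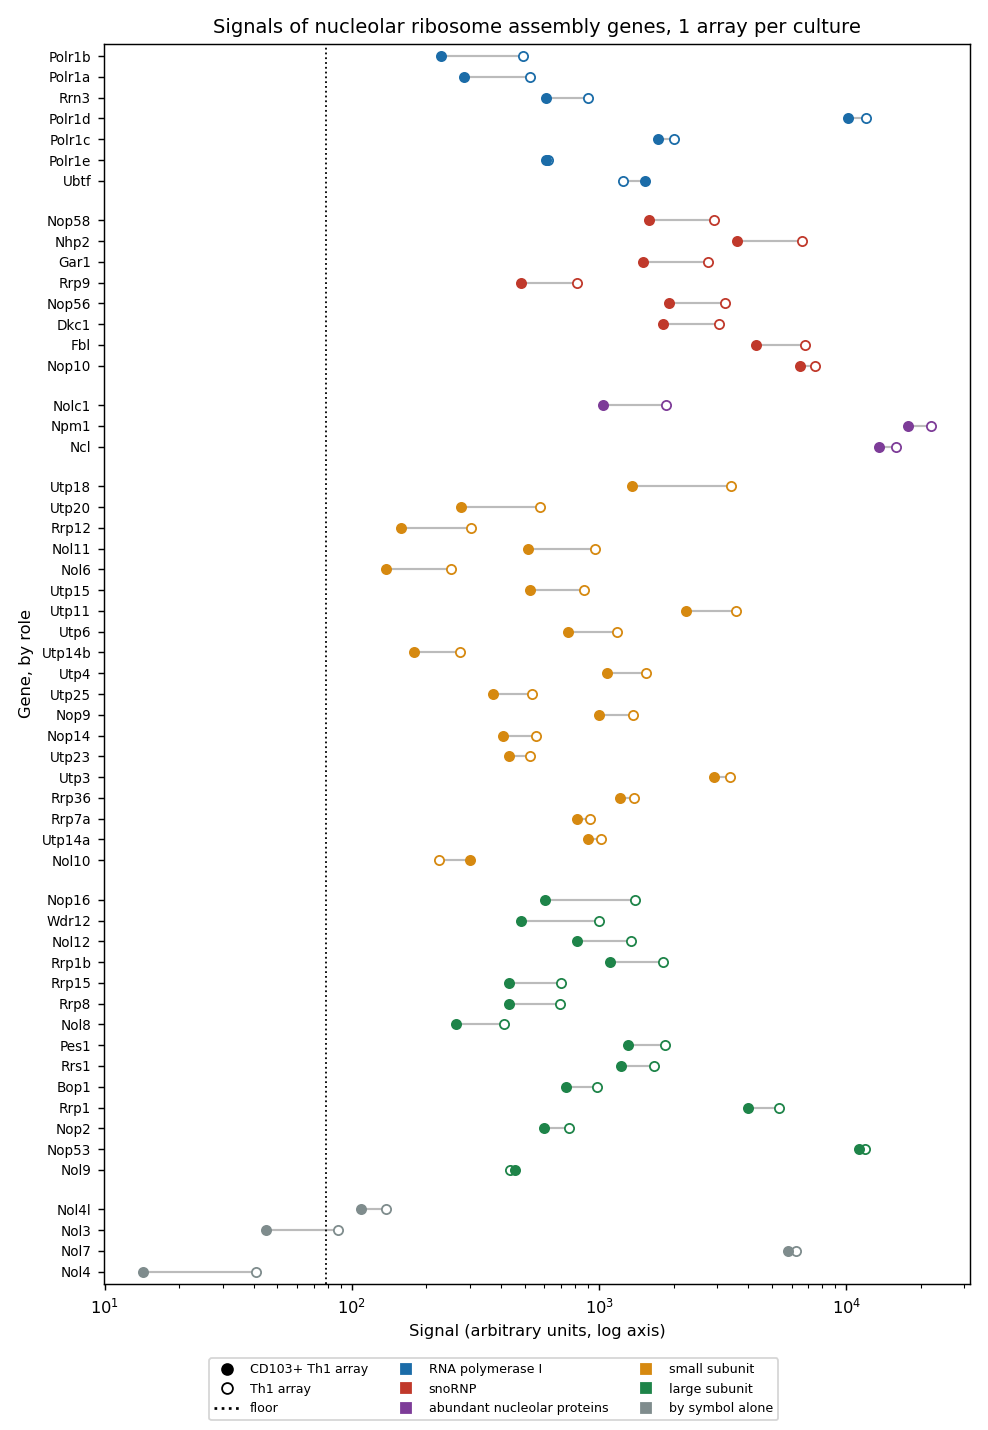
Signal of each of the 55 genes on a log axis in arbitrary units, by role, with the CD103+ Th1 array as filled points, the Th1 array as open points and the floor of 78.5 dotted. Filled points lie left of open ones for all but Ubtf, Nol9 and Nol10, and Nol4 lies under the floor on both arrays.

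Promoter sequences are shown for Utp18, Nop16, Polr1b and Utp20, the 4 genes with the lowest ratios on the brightest probe set. Nol11, Rrn3 and Nop2 were added as examples of genes with the letters CACGTG upstream of their starts. CACGTG is the E-box that MYC with its partner MAX is known to bind, reads the same on both strands and is in capitals. The sequences are from RefSeq on GRCm38.p6, run 5′ to 3′ on the gene's strand and end at the base before the annotated start. They cover chr11:93885767-93885866 (minus strand) for Utp18, chr13:54590075-54590174 (minus) for Nop16, chr2:129100896-129100995 (plus) for Polr1b and chr10:88826815-88826914 (minus) for Utp20. The others are chr11:107189382-107189481 (minus) for Nol11, chr16:13780479-13780698 (plus) for Rrn3 and chr6:125131783-125131882 (plus) for Nop2.
Utp18: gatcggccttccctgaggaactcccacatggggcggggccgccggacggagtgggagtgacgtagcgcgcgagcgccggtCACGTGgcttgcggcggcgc
Nop16: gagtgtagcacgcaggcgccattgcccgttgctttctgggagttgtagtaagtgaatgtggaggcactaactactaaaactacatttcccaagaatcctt
Polr1b: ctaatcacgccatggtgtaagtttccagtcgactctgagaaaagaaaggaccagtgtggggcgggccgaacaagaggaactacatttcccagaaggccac
Utp20: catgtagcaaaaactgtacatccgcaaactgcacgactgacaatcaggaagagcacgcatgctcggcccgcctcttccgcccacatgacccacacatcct
Nol11: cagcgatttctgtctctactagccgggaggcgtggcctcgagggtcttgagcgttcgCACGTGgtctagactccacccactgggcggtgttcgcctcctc
Rrn3: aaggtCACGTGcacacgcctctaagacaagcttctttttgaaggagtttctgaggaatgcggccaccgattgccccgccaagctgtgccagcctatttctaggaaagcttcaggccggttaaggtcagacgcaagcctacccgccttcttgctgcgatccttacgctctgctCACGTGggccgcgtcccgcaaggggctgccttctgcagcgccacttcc
Nop2: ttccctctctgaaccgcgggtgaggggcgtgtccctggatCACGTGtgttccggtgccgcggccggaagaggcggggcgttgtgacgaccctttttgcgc

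Counted from the start, with -1 the base before it, the letters begin at -20 in Utp18, at -43 in Nol11 and at -60 in Nop2, and Rrn3 has them at -215 and at -48. Nop16 and Polr1b have none in the whole window of 250 bases before to 50 after the start, and Utp20 has them at base 38 after its start. Promoter windows were found by symbol for 43 of the 55 genes, on 19 chromosomes with at most 6 genes on 1 of them. In 10 of these 43 genes (23.3%) a window held CACGTG, against 8.09% of the 27025 genes in the promoter table and 11.8% of the 9128 measured genes with a window. Counted by window, 12 of 57 (21.1%) held it, against 7.15% of all 32851. It was present in 4 of the 21 genes with a window that were at least 1.5-fold lower and in 6 of the other 22. That difference was not tested. These are matches of letters and no binding was measured.

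The snoRNP proteins were the role with the largest share of genes at least 1.5-fold lower. All 8 had a log2 ratio below 0, the median was -0.76, 7 reached 1.5-fold lower and 0 reached 2-fold lower. Box C/D particles guide ribose methylation and are built on fibrillarin, the methyltransferase, with NOP56 and NOP58. Fbl measured 4317 in CD103+ Th1 against 6809 in Th1, 1.58-fold lower. Nop56 had 1914 and 3222, 1.68-fold lower, and Nop58 had 1586 and 2916, 1.84-fold lower. All measured probe sets of these 3 genes were below 0, and those of Fbl gave -0.66 and -0.63.

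Box H/ACA particles guide pseudouridylation, and their enzyme is dyskerin, the product of Dkc1, which is also part of telomerase. Dkc1 measured 1819.6 in CD103+ Th1 against 3040 in Th1, 1.67-fold lower, and its 3 probe sets ran from -0.86 to -0.54 on the log2 scale. Its partner Gar1 had 1501 and 2749, 1.83-fold lower. Nhp2, another core protein, had 3593 and 6593, also 1.83-fold lower. The smallest partner, Nop10, stood apart with 6488 and 7473, 1.15-fold lower, and a second Nop10 probe set gave -0.35. Rrp9, a protein of the U3 particle needed for early cleavage, had 481 and 814, 1.69-fold lower.

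RNA polymerase I genes were divided. The genes of the 2 largest subunits, which form the catalytic core, were lower, and Ubtf, for the activator UBF, was 1.23-fold higher. Genes of smaller subunits went both ways and stayed under 1.5-fold. Polr1a measured 282.9 in CD103+ Th1 against 523 in Th1, 1.85-fold lower. Its other measured probe sets, both dimmer, gave -0.54 and -0.42, short of 1.5-fold. Polr1b had 228.5 and 494, 2.16-fold lower, on its 1 probe set. The subunits shared with RNA polymerase III differed less, with Polr1c at 1737 and 2007, 1.16-fold lower, and Polr1d at 10177 and 11975, 1.18-fold lower. Polr1e was nearly equal, at 610.2 and 620.6. Of the smaller subunits outside the symbol rule, Cd3eap was 1.46-fold lower and Twistnb 1.37-fold lower, and Znrd1 was 1.33-fold higher.

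The initiation factor Rrn3, known as TIF-IA, which brings the polymerase to the promoter in response to growth signals, had 608 and 897, 1.48-fold lower and just short of 1.5-fold. Ubtf, which encodes the architectural factor UBF of ribosomal DNA, had 1538 in CD103+ Th1 against 1250.07 in Th1, and both of its probe sets were above 0. Of the 7 genes, 2 were at least 1.5-fold lower and 6 were below 0, with a median of -0.23.

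The abundant nucleolar proteins had small differences except for Nolc1. Npm1 encodes nucleophosmin, a histone and ribosome chaperone, and had 17790.2 in CD103+ Th1 against 21997 in Th1, 1.24-fold lower. Ncl encodes nucleolin, which binds the precursor RNA, and had 13498 and 15809, 1.17-fold lower, with probe sets from -0.41 to 0.43. Nolc1 encodes Nopp140, a chaperone of snoRNPs, and had 1032 and 1858.5, 1.80-fold lower on its brightest probe set. The other Nolc1 probe sets, both dimmer, gave -1.05 and 0.22.

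Small subunit factors were mostly lower, by very different amounts. These proteins form the processome that folds and cleaves the 5′ part of the precursor. Of 19 measured genes, 18 were below 0 and 9 reached 1.5-fold lower. Their median was -0.53. Utp18, a WD-repeat protein that links the processome to the exosome, had the lowest ratio of all 54 genes, with 1360.1 in CD103+ Th1 against 3413 in Th1, 2.51-fold lower. Its other probe set, with signals of 49.6 and 85.7, gave -0.13 with the floor. Utp20, a very large scaffold protein, had 276 and 576, 2.09-fold lower on its 1 probe set.

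Rrp12, which acts in export of preribosomes, had 158 in CD103+ Th1 against 304 in Th1, 1.93-fold lower. Nol6, the counterpart of yeast Utp22, had 137 and 252, 1.84-fold lower, and its second probe set gave -0.45. Nol11 and Utp15 belong to the group of factors that also bear on transcription of ribosomal DNA. Nol11 had 516 and 961, 1.86-fold lower, but 4 probe sets ran from -0.90 to 0.23. Utp15 had 525 and 871, 1.66-fold lower, and its other probe set gave 0.02. Utp4, of the same group, had 1077 and 1552, 1.44-fold lower.

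Utp11 had 2245 and 3578, 1.59-fold lower, Utp6 had 748 and 1183, 1.58-fold lower, and each had a further probe set above 0. Utp14b, a retrogene copy of Utp14a, had 179 and 273, 1.53-fold lower, while Utp14a itself had 898 and 1016, 1.13-fold lower. Utp25, Nop9, Nop14, Utp23, Utp3, Rrp36 and Rrp7a had ratios between -0.51 and -0.18. The choice of probe set set the direction for Utp23. The one used gave 432 in CD103+ Th1 against 525 in Th1, and another of nearly equal brightness gave 521 and 389, a log2 ratio of 0.42. Nol10 was the only gene of this role above 0, with 300.5 and 224, 1.34-fold higher on its 1 probe set.

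Large subunit factors had a median of -0.57, with 13 of 14 below 0 and 7 reaching 1.5-fold lower. Nop16 had 603 in CD103+ Th1 against 1403 in Th1, 2.33-fold lower on its 1 measured probe set. PES1, BOP1 and WDR12 form the PeBoW complex, which is needed for maturation of the 28S and 5.8S RNAs. Wdr12 had 482 and 1003, 2.08-fold lower, while Pes1 had 1309.9 and 1846.5, 1.41-fold lower, and Bop1 had 737 and 980.2, 1.33-fold lower. The 3 genes of the complex thus differed in the size of the ratio, and Pes1 and Bop1 each had a dimmer probe set above 0, at 0.71 and 0.30. That of Pes1 had 128.3 in CD103+ Th1 and 37.1 in Th1, the latter under the floor, so 0.71 is a ratio to the floor.

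Rrp1b had 1109.55 in CD103+ Th1 against 1812 in Th1, 1.63-fold lower, with 3 probe sets from -1.01 to -0.54. Its paralog Rrp1 had 4011 and 5326, 1.33-fold lower. Nol12 (815 and 1346), Rrp15 (434 and 704), Nol8 (263 and 411) and Rrp8 (432 and 692), the last a base methyltransferase of the large RNA, were 1.56-fold to 1.65-fold lower. The other Nol8 probe sets, nearly as bright, gave -0.37 and -0.36, short of 1.5-fold. Rrs1, which helps to bring in the 5S particle, had 1222 and 1659, 1.36-fold lower, and Nop2, a cytosine methyltransferase, had 599.7 and 757, 1.26-fold lower. Nop53 had 11255 and 11867 and Nol9, an RNA kinase, 455 and 435. These were 2 of the 3 genes whose ratios were nearest 0, with Polr1e.

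The 4 genes Nol3, Nol4, Nol4l and Nol7 entered by symbol alone and were not placed in any of the assembly roles above. Nol3, a repressor of apoptosis, measured 45.1 in CD103+ Th1 against 88.0 in Th1, at least 1.12-fold lower. Nol4 had 14.3 and 41.0, both under the floor. Nol4l had 109 and 137, and Nol7 had 5794 and 6278, 1.08-fold lower. Without these, 26 of 51 genes were at least 1.5-fold lower.

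The second and further probe sets of the same genes had smaller ratios. Of 104 measured probe sets, 90 were below 0 and 33 at least 1.5-fold lower. The 50 that were not the brightest of their gene had a median of -0.26, with 39 below 0. Of 32 genes with 2 or more measured probe sets, 20 had all of them below 0, 11 had both directions and 1, Ubtf, had all above 0. Of the probe sets above 0 that were not the brightest, 6 were among 29 with a signal of at least 4 times the floor on an array and 5 among the 21 dimmer ones. The same counts were not made over all probe sets of the arrays, so no share stands beside those of this paragraph.

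**Figure D2:**
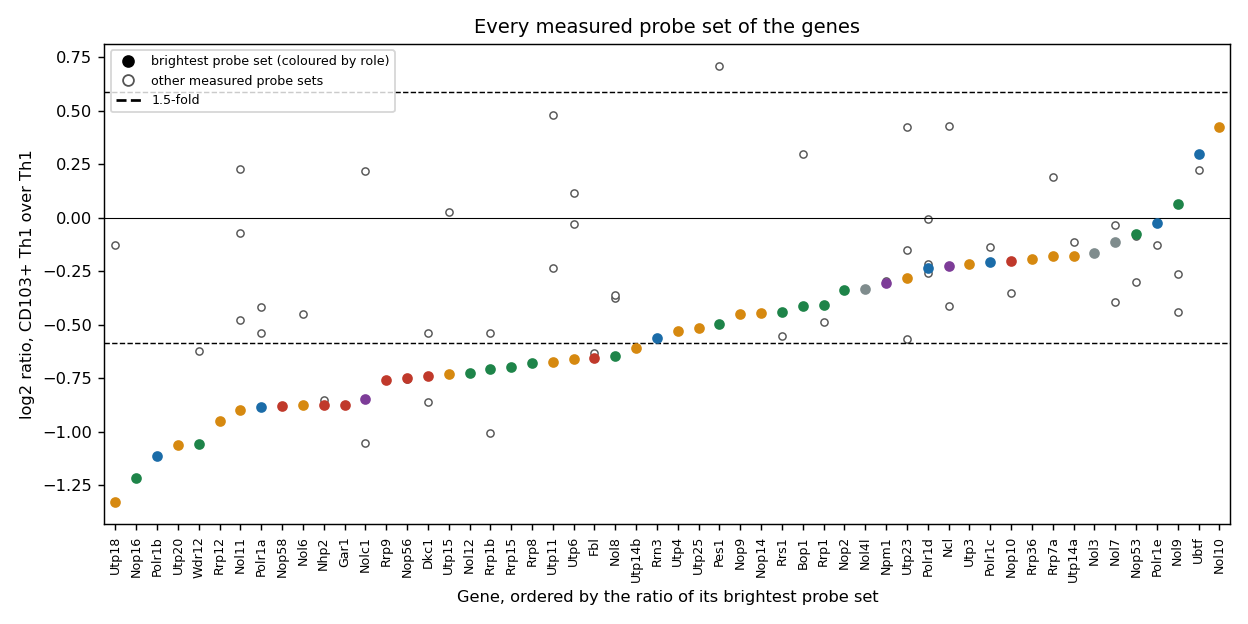
Log2 ratio, CD103+ Th1 over Th1, of every measured probe set of the 54 genes, ordered by the brightest one, which is filled and coloured by role, while open points are the others. Fbl, Nop56 and Nhp2 have probe sets that nearly coincide, and Pes1, Utp11 and Utp23 have one well above 0.

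The median shift was of similar size in each range of signal used, but the brightest genes had smaller ratios. Of 14 genes with a mean signal under 500, 7 reached 1.5-fold lower, and their median log2 ratio was -0.56. Between 500 and 2000 these numbers were 11 of 24 and -0.54, and above 2000 they were 8 of 16 and -0.53. The medians of all measured genes in the same ranges were -0.05, 0.02 and -0.05, and 16.2%, 11.8% and 10.9% of them were at least 1.5-fold lower. Within the range above 2000, the nucleolar genes with a mean signal of 10000 or more were Npm1 (-0.31), Ncl (-0.23), Polr1d (-0.23) and Nop53 (-0.08).

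**Figure D3:**
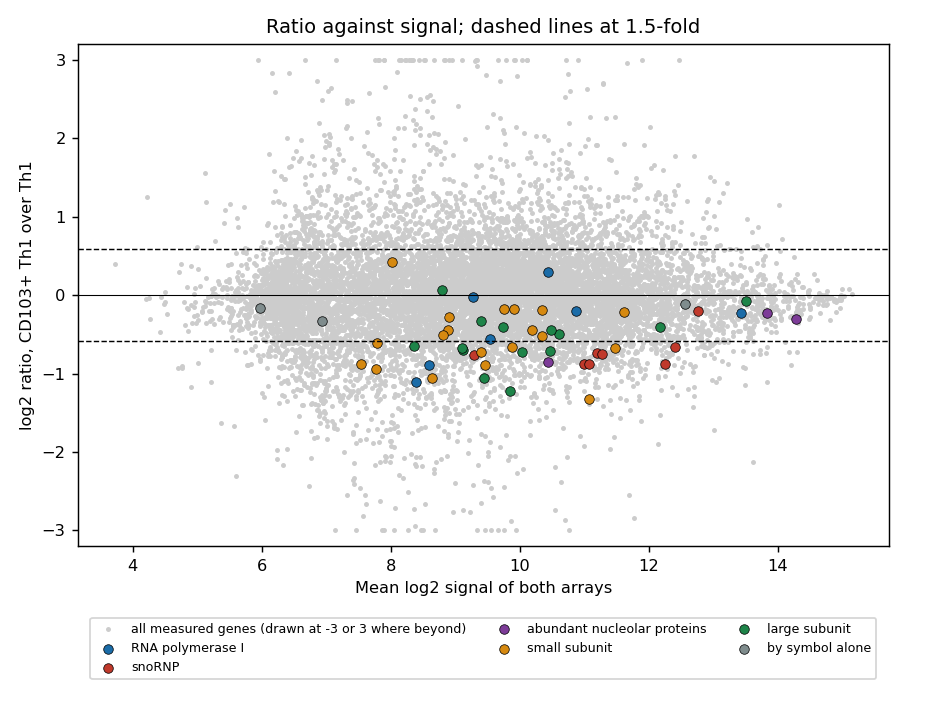
Log2 ratio, CD103+ Th1 over Th1, against the mean log2 signal of both arrays, for 11194 measured genes (grey, drawn at -3 or 3 where beyond) and the 54 nucleolar genes (coloured by role), with dashed lines at 1.5-fold. The coloured points lie mostly below 0 across the range of signal, 26 of them under the lower dashed line.

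Other ribosome assembly genes, listed without regard to their symbols, were shifted the same way but less far. Of 99 with a ratio, 86 (86.9%) were below 0, against 52.6% of all measured genes. At least 1.5-fold lower were 27 (27.3%), against 13.4%, and 1 was at least 1.5-fold higher, against 12.4%. At 2-fold, 5 (5.05%) were lower, close to the 4.87% of all measured genes. The median of the 99 was -0.40. Ruvbl2, an ATPase used in snoRNP assembly, had 1105 in CD103+ Th1 against 2558 in Th1, 2.31-fold lower, and Shq1, a chaperone of dyskerin, was at least 2.24-fold lower (26.8 and 176). Ebna1bp2 was 2.12-fold lower on its brightest probe set, with another at 0.18, and Urb2 2.11-fold lower. The 1 gene at least 1.5-fold higher was Taf1c, a subunit of the RNA polymerase I selectivity factor, with 467 and 278, 1.68-fold. The RNA exosome, which trims the precursor, had 4 of 13 measured genes lower by 1.5-fold or more and a median of -0.36. Its nuclease gene Dis3 was 1.78-fold lower and Exosc3 1.74-fold.

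Genes of the ribosomal proteins that the nucleolus assembles had small ratios, most of them below 0. Of 46 measured genes of cytosolic ribosomal proteins and their close paralogs, 37 were below 0 and 3 reached 1.5-fold lower. Their median was -0.05. Those 3 were Rps25 (2.08-fold), Rpl12 (1.69-fold) and Rps27l (1.63-fold). Rps25 (926 and 1928) and Rpl12 (398 and 672) were among the 10 genes of this list with a mean signal under 10000. With a mean signal of 10000 or more, in the upper range of arrays whose highest signal was 36496, 36 of the 46 had a median of -0.05, and the other 10 had -0.18. Whether high signals were compressed was not tested. Ribosomal protein genes have many processed copies in the genome, which such probes may not tell apart. Mitochondrial ribosomal proteins, made for a different ribosome, had a median of -0.35, 65 of 76 were below 0 and 17 reached 1.5-fold lower, led by Mrps10, Mrps28, Mrps18b and Mrpl17. RNA polymerase II subunits had a median of -0.06 with 0 of 8 past 1.5-fold in either direction. Cell cycle genes had a median of -0.15, with 24 of 28 below 0 and 0 past 1.5-fold in either direction, and the proliferation marker Mki67 had 11210.4 and 12329. With 1 array a group, the differences between these lists were not tested.

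**Figure D4:**
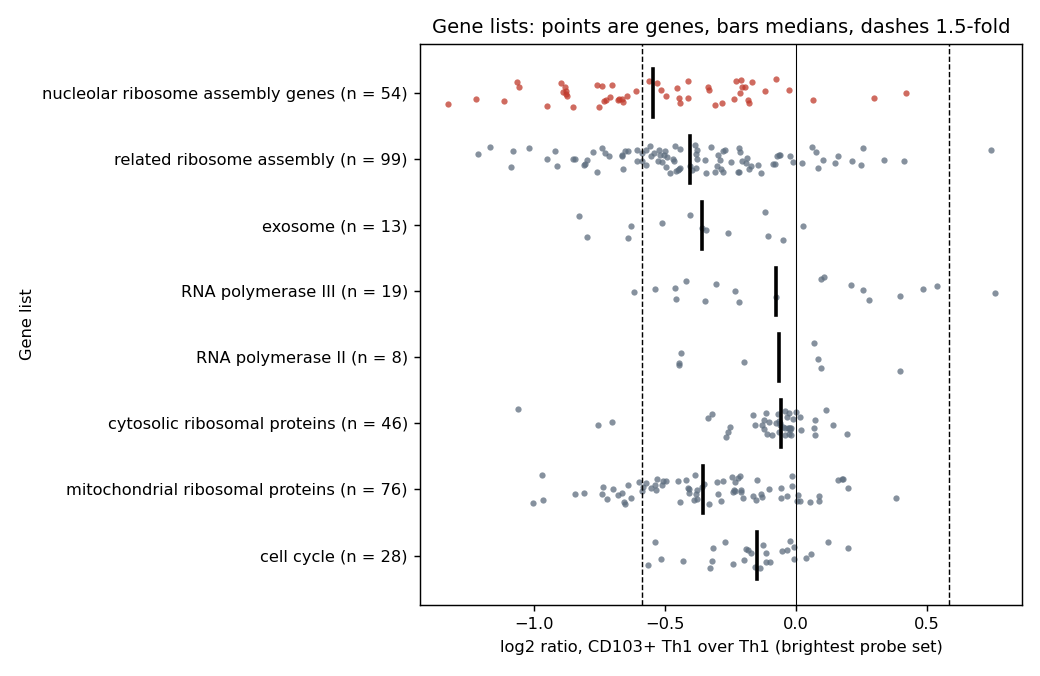
Log2 ratios, CD103+ Th1 over Th1, of the measured genes of 8 lists, with each point a gene, each bar the median of the list and dashed lines at 1.5-fold. The bar of the 54 nucleolar genes lies at -0.54 and that of the 46 cytosolic ribosomal protein genes at -0.05.

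The labelled cell type was compared with its markers. The T cell genes Cd3d, Cd3e, Cd3g, Cd4, Cd5 and Cd28 were above the floor on both arrays, with 0 of 6 past 1.5-fold, and their summed signals were 46956 in CD103+ Th1 against 43214 in Th1. Of 4 CD8 T and NK cell markers, Cd8a and Cd8b1 lay above the floor, 4.41-fold and 2.28-fold higher in CD103+ Th1. The 5 Cd8a probe sets ran from 0.24 to 2.16. Ncr1 and Klra1 were under the floor, and the 4 markers summed to 3679 and 1189. Of 5 B cell markers, Ighm and Cd79b passed 1.5-fold upward in CD103+ Th1, whereas Cd79a, Ms4a1 and Pax5 were under the floor, with sums of 8038 and 2672. The 4 measured Ighm probe sets ran from -0.53 to 1.84, and Cd79b was above the floor in CD103+ Th1 only. Of 7 myeloid markers, Lyz2, Itgam and Itgax were under the floor. Mpeg1 had 660.2 in CD103+ Th1 against 5.75, at least 8.41-fold higher, whereas Cd68 was 2.25-fold lower and Csf1r 1.59-fold lower. The 7 summed to 1006 and 653, and to 346 and 647 without Mpeg1. The part of other cells in the lower nucleolar signals was not tested.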

How the data were processed

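Splenic CD4 T cells were profiled as 2 samples, CD103+ Th1 and Th1, with 1 array each. The deposited values are signal intensities on a linear scale, 1 for each probe set and array, and GCOS is named per the submitters' processing notes. Its version, scaling target and filters are not given in the sources used here. Over 45037 probe sets the medians were 78.0 and 78.8, with 2% trimmed means of 498 on both arrays, so no scaling was added. Control probe sets and detection calls were not used here.

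Probe sets with 1 gene symbol in the platform annotation (34945) were named, by gene identifier, through the GRCm38.p6 gene table (34741 matched), and this changed the symbol of 0 probe sets of the nucleolar genes. The measured probe set of greatest mean log2 intensity stood for a gene. Intensities under the floor were set to it, genes under it on both arrays got no ratio, and genes under it on 1 array got a bound. Counts used 1.5-fold, and 2-fold beside it. Any member could be named, and of other lists mainly the 4 largest ratios. Rps27l, Taf1c, Cd3eap, Twistnb, Znrd1, Exosc3, Dis3, Mki67 and the marker genes were named for the counts they belong to. Members, lists and alternatives were chosen with earlier results of these data known. The steps were tested on simulated data. Python 3.11.15 and pandas 2.3.3 were used. The number of arrays limits the precision.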

Additional observations from a re-analysis of the deposited data

How the results depend on the processing

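The median log2 ratio of the nucleolar genes stayed below 0 under all 12 alternatives. It was -0.53 with medians set equal, -0.59 after quantile normalization, -0.55 with trimmed means set equal or with a pseudocount of 21.2, -0.61 with a lower floor (25th percentile), -0.45 with a higher one (75th percentile, 472), -0.45 with the mean of all measured probe sets, -0.53 with only probe sets without suffix letters, and -0.61 without Nol3, Nol4, Nol4l and Nol7. With that higher floor 17 of 46 genes reached 1.5-fold lower, against 732 of all 7169 measured genes, and 3 reached 2-fold, against 199. For the mean of probe sets, 3 of 54 reached 2-fold, against 478 of all 11194 measured genes. Without suffixed probe sets Utp11 turned to 0.48 and Utp23 to 0.42. With the mean of probe sets 20 of 54 genes reached 1.5-fold lower, against 1346 of all 11194. Under the same setting Pes1 turned to 0.11, Rrp7a to 0.0057 and Nol9 to -0.21. Nol9 was at -0.0053 after quantile normalization. Of the 26 genes at least 1.5-fold lower, 13 stayed so under every alternative that gave a value, including Fbl, Nop56, Nop58, Dkc1, Nhp2, Gar1, Utp18, Nop16 and Wdr12. Only 11 of the 13 had a value under all alternatives. Gar1 did not, as its 1 probe set has suffix letters. Unchanged symbols, genes at 4 times the floor, and the linear mean to pick the probe set, the last chosen after seeing the data, left the median at -0.54. No paired analysis was possible because each condition has 1 array. Without replicates, no ratio has an error.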

Other observations

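RNA polymerase III, which makes the 5S ribosomal RNA and transfer RNAs, had 19 measured subunit and factor genes with a median log2 ratio of -0.08. Of these, 1 was at least 1.5-fold lower, Gtf3c3 (400 in CD103+ Th1 against 613 in Th1), and 1 was at least 1.5-fold higher. The latter was Maf1, the repressor of this polymerase, with 3845 and 2269, 1.69-fold higher, and its 2 probe sets gave 0.71 and 0.76.

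Genes of the Myc network differed in both directions. Myc had 2129.9 in CD103+ Th1 against 3479 in Th1, 1.63-fold lower on its 1 measured probe set. Mycn had 96.9 and 250.5, 2.59-fold lower, with the CD103+ Th1 signal close to the floor and another probe set at -0.71. Mxi1, an antagonist, was 1.54-fold lower. Max, the shared partner, had 371 and 99.1, 3.74-fold higher on 1 probe set, with the Th1 signal close to the floor. The antagonists Mxd4 and Mxd3 were 3.05-fold and 1.53-fold higher, the former with 4 probe sets from -0.11 to 2.31. Of 12 measured genes, 3 reached 1.5-fold lower and 3 reached 1.5-fold higher, against 13.4% and 12.4% of all measured genes. With so few genes these counts do not set the network apart. Any link of these values to the nucleolar genes was not tested.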
